A study of Mus musculus with 5 samples.

Results

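The 10 genes described here mark the epithelium of the choroid plexus, the tissue in the brain ventricles that makes cerebrospinal fluid. They are Ttr, Folr1, Kl, Clic6, Aqp1, Kcnj13, Otx2, Enpp2, Ecrg4 and Cldn2, taken by name as markers of that epithelium from a table of 56748 genes. All 10 were found and all 10 passed the filter on low counts, among 17724 tested genes. The RNA came from CD11b-positive cells of the brain without its cerebellum, with 1 library from each of 5 mice aged 7 months. CD11b is an integrin of microglia and other myeloid cells, so these genes belong to a cell type other than the one named by the labels.

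The 3 libraries of the first group came from 5xFAD/Cd5l tg/wt mice (replicates 1, 2 and 3), called Cd5l-transgenic below. These mice carried the 5xFAD transgenes and also a transgene for mouse CD5L, a secreted scavenger-receptor-family protein, under the human PDGF-B promoter. The 2 libraries of the other group came from 5xFAD mice (replicates 1 and 3). The 5xFAD line, shared by both groups, expresses mutant human amyloid precursor protein and presenilin under the neuronal Thy1 promoter and develops amyloid plaques, so no group was free of those transgenes. The design also names wild-type mice, not analysed here. The titles and cell type labels name CD11b-positive cells, whereas the sample descriptions speak of brain tissue, and the sources used here do not say how cells were isolated. Each title names a mouse of its own.

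Choroid plexus epithelial cells are joined by tight junctions and form the barrier between blood and cerebrospinal fluid. Ion pumps, channels and water channels on their surfaces drive fluid secretion, and the cells also carry hormones and vitamins into the fluid and release their own proteins into it. The homeobox factor OTX2 is needed to form the choroid plexus in the mouse embryo and is kept on in the adult epithelium.

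The libraries held between 30798377 and 34794617 counts, so that 1 count was worth 0.0287 to 0.0325 CPM (counts scaled to a common library size). Cd5l had 7230, 10680 and 6438 counts in Cd5l-transgenic replicates 1, 2 and 3, against 45 and 9 counts in 5xFAD replicates 1 and 3. Microglial genes were abundant in all 5 libraries, with Csf1r, a receptor gene of microglia, at 6490 to 6923 CPM with the Cd5l transgene and 5993 to 6226 CPM in 5xFAD. The libraries that stood apart for the genes of this report were 5xFAD replicate 3, with the most choroid plexus RNA, and Cd5l-transgenic replicate 2, with the most oligodendrocyte RNA. Medians of the members and of most gene lists are therefore also given without them. In RNA from many cells, fewer cells of a type and less RNA per cell cannot be told apart.

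Promoter sequences were looked at first for what the members share in their DNA. RefSeq promoter windows (assembly GRCm38.p6) were at hand for 6 of the 10 members, Kl, Aqp1, Kcnj13, Otx2, Ecrg4 and Cldn2, as 9 windows, 4 of them for Otx2. Each window, with 250 bases before and 50 bases after the start site, was searched on both strands. The motifs were TAATCC, the core that OTX2 binds, TGTTTAC, a forkhead core, and TATAAA, the TATA box. TATAAA was added after the sequences were seen. These motifs share no overlapping match among the members. TAATCC was in 1 of the 9 windows (11.1%), against 7.06% of all 32851 promoter windows, and in 2 of 25 windows of 19 other choroid plexus genes (8%). TGTTTAC was in 0 of the 9 windows, in 1 of the 25 and in 3.65% of all windows. TATAAA was in 3 of the 9 windows (33.3%), in 3 of the 25 (12%) and in 13.6% of all windows. A match describes letters in a window and is not evidence of a bound site, and a missing match says only that the letters are not in that window.

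Kcnj13 and Cldn2 are shown because each holds TATAAA close to its start site, at 29 and 35 bases before it, and Ecrg4 because it holds none of the 3 motifs and is the member that a fit without 1 library called, as given below. The 4th line is the stretch of 30 bases in 1 Otx2 window that holds the only TAATCC, read on the opposite strand as GGATTA, 211 bases before that start site. All 250 bases before that start site lie in annotated exons. Capitals mark the motif in the lines other than that of Ecrg4, which has none, and all are written 5′ to 3′ on the strand of the gene.
Kcnj13, chr1:87394730-87394979, minus strand: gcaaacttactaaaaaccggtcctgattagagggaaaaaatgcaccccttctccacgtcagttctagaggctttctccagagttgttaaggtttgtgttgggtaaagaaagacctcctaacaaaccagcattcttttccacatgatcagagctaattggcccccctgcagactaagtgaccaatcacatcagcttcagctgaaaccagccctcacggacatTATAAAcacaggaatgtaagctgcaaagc
Cldn2, chrX:139800558-139800807, plus strand: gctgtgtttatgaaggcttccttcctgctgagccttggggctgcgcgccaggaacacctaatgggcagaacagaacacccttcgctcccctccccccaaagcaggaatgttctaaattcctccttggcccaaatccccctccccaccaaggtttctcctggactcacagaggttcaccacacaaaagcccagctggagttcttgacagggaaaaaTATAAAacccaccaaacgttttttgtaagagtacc
Ecrg4, chr1:43730352-43730601, plus strand: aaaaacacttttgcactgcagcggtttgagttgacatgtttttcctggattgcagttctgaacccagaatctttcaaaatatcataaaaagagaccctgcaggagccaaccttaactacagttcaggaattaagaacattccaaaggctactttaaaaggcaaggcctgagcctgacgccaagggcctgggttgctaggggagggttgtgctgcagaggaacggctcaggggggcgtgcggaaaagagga
Otx2, chr14:48665303-48665332, minus strand: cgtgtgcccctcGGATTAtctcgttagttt

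All 10 choroid plexus genes were highest in the same library, 5xFAD replicate 3, and all 10 were next highest in Cd5l-transgenic replicate 2. Over all tested genes 21.3% were highest in 5xFAD replicate 3. The level in that library was 2.98 times (Kcnj13) to 5.60 times (Ttr) the next one, and at least that lowest ratio was reached by 394 of the 17724 tested genes, or 2.22%. Summed over the 10 genes, the level was 420.2, 994 and 515 CPM in Cd5l-transgenic replicates 1, 2 and 3, against 690 and 4239 CPM in 5xFAD replicates 1 and 3. Thus 61.8% of the summed CPM of the 5 libraries lay in 5xFAD replicate 3, at 10.1, 4.26 and 8.23 times the Cd5l-transgenic sums and 6.14 times the sum of its own group's other mouse.

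**Figure D1:**
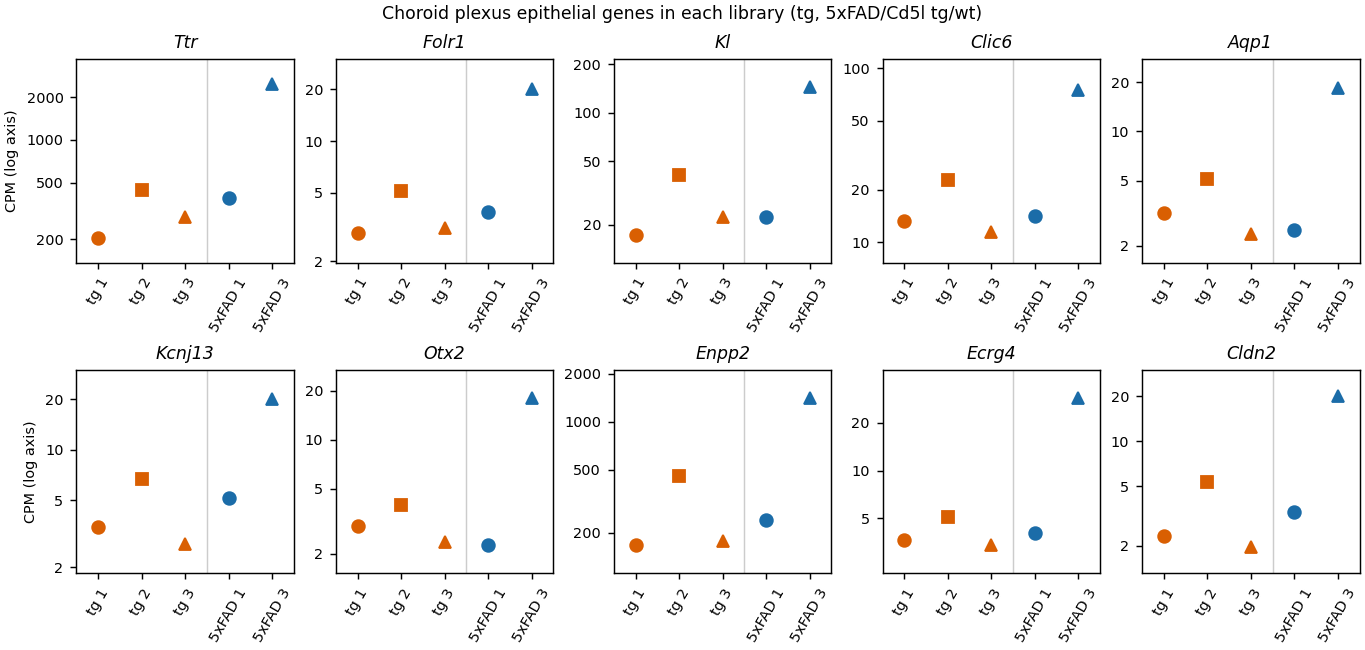
Level of each of the 10 choroid plexus genes in each library, in CPM on a log axis, 1 point per mouse, with the Cd5l-transgenic libraries (tg) in orange and the 5xFAD libraries in blue. In every panel 5xFAD replicate 3 is highest and Cd5l-transgenic replicate 2 next, while 5xFAD replicate 1 lies below Cd5l-transgenic replicate 2.

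As a share of all counts, the 10 genes took 0.0422%, 0.101% and 0.0518% in Cd5l-transgenic replicates 1, 2 and 3, against 0.0658% and 0.432% in 5xFAD replicates 1 and 3. The 95% Clopper-Pearson interval of the last share ran from 0.4299% to 0.434%, and that of the next highest, in Cd5l-transgenic replicate 2, from 0.1001% to 0.102%. These intervals cover counting error only, not the spread between mice. The 5xFAD mean has an SD about as large as itself for every member.

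The comparison of the genotypes asked how forced expression of CD5L went with gene expression in 5xFAD brain cells. None of the 10 genes passed it. In the edgeR quasi-likelihood test with Benjamini-Hochberg adjustment over all tested genes, 0 members were called at an adjusted p of 0.05, where the background was 0% of genes called higher and 0% called lower. The adjusted p was 0.995 for each of the 10. All 10 log2 fold changes (Cd5l-transgenic over 5xFAD) were below 0, from -2.20 to -1.51, with a median of -1.67, against a median of -0.03 over all tested genes, of which 10149 lay below 0. At an unadjusted p below 0.05 there were 2 members, Ttr and Ecrg4, both lower, where the background was 1.5% of genes lower (265) and 1.14% higher (202). The CPM of the groups overlapped for 10 of 10 members, because Cd5l-transgenic replicate 2 stood above 5xFAD replicate 1, while 8.69% of tested genes were lower and 7.2% higher without overlap. In the Wald test of DESeq2 0 members were called as well, with a lowest adjusted p of 0.755, where the background was 0.0508% of genes called higher and 0.0113% called lower. An exact permutation test of 3 mice against 2 cannot give a p below 0.1.

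The size of the fold changes rested on 1 mouse, and their direction depended on which libraries were kept. Without 5xFAD replicate 3 the median of the 10 log2 fold changes was 0.07, 5 of them lay below 0, and they ran from -0.33 (Ttr) to 0.50 (Aqp1), with 0 called. That fit has 1 mouse in 5xFAD, which is assumed to vary like the Cd5l-transgenic ones. Without 5xFAD replicate 1, the opposite choice, the median was -2.42, all 10 members had an unadjusted p below 0.05, and 1 was called lower, Ecrg4 (log2 fold change -2.82, SE 0.23, adjusted p = 0.0470 by edgeR). The background of that fit was 0.0528% called lower, or 10 of 18942 genes. Its only 5xFAD mouse was replicate 3, the library highest in all 10 genes, again assumed to vary like the Cd5l-transgenic mice, so it adds no second mouse with that level. With 5xFAD replicate 3 and Cd5l-transgenic replicate 2 both left out, a fit added after the data were seen, the median was -0.27 and 0 members were called, against 0.072% of genes called higher and 0.155% lower.

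**Figure D2:**
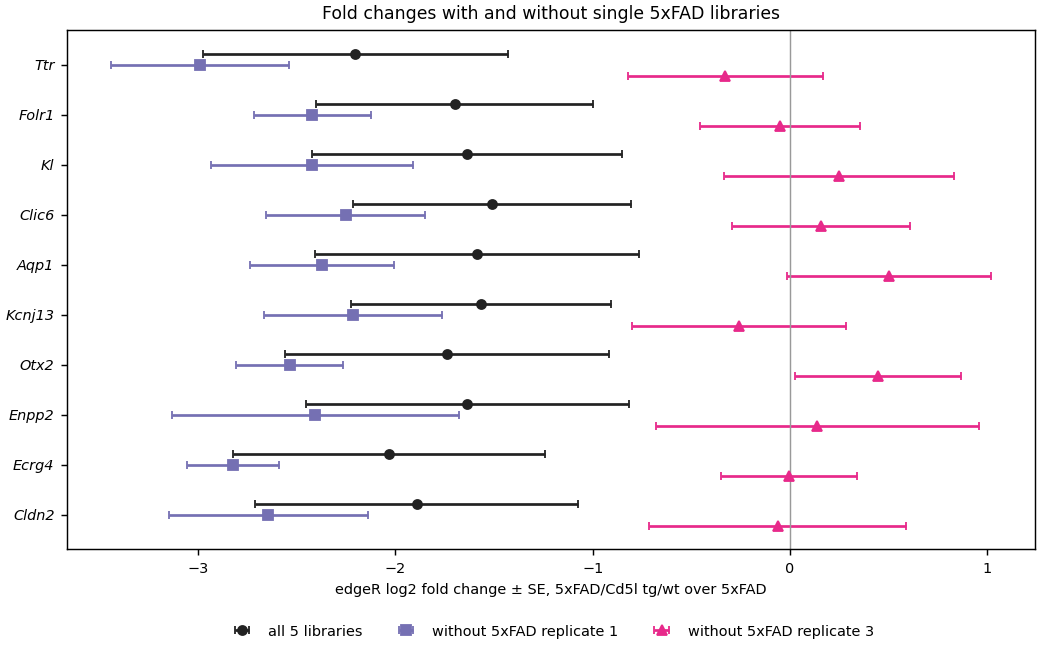
Log2 fold change of each gene, Cd5l-transgenic over 5xFAD, in the edgeR fits on all libraries (black), without 5xFAD replicate 1 (purple) and without 5xFAD replicate 3 (pink), with bars of 1 standard error each. With all libraries the 10 values lie between -2.20 and -1.51, and without 5xFAD replicate 3 between -0.33 and 0.50.

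The secreted products come first. Ttr encodes transthyretin, which carries thyroxine and the retinol-binding protein in blood and cerebrospinal fluid and is the most abundant transcript of this epithelium. The gene (ENSMUSG00000061808) lies on chromosome 18 from 20798337 to 20807378 on the plus strand in the authors' table, which uses GRCm39 like all gene positions below. It had 204, 442 and 288 CPM in Cd5l-transgenic replicates 1, 2 and 3, against 390 and 2476 CPM in 5xFAD replicates 1 and 3. Only 5xFAD replicate 3 stood apart, and the other mouse of its group lay inside the range of the Cd5l-transgenic mice. The means were 311 ± 121 CPM (SD, n = 3) with the Cd5l transgene and 1433 ± 1475 CPM (SD, n = 2) in 5xFAD, and the log2 fold change was -2.20 (SE 0.77, unadjusted p = 0.0336, adjusted p = 0.995 by edgeR). Per kilobase of gene length, Ttr ranked 195, 80 and 135 among the tested genes in the Cd5l-transgenic libraries, against 103 and 11 in 5xFAD replicates 1 and 3. Its level there was 172, 373 and 243 CPM per kb with the Cd5l transgene, against 329 and 2088 CPM per kb in 5xFAD. The microglial receptor gene Csf1r, for scale, had 1199, 1124 and 1159 CPM per kb with the Cd5l transgene, against 1038 and 1078 CPM per kb in 5xFAD. In 5xFAD replicate 3 Ttr thus exceeded that microglial gene per length, and in the other 4 libraries it lay below it.

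Enpp2 encodes autotaxin, the secreted enzyme that makes the lipid mediator lysophosphatidic acid, and oligodendrocytes express it as well as choroid plexus. The gene (ENSMUSG00000022425) lies on chromosome 15 from 54702297 to 54816288 on the minus strand. It had 167, 457 and 178 CPM in Cd5l-transgenic replicates 1, 2 and 3, against 242 and 1418 CPM in 5xFAD replicates 1 and 3. Here Cd5l-transgenic replicate 2 also stood above the other mice of its group, at 2.65 times their mean, the widest such gap among the members. The means were 267 ± 165 CPM (SD, n = 3) with the Cd5l transgene and 830.1 ± 831 CPM (SD, n = 2) in 5xFAD, with a log2 fold change of -1.64 (SE 0.82). Enpp2 was the only member other than Ttr above 100 CPM per kb in any library, at 245 in 5xFAD replicate 3, where it ranked 127. The lncRNA gene Gm26684 overlaps Enpp2 on the opposite strand and had 0.258, 0.345 and 0.302 CPM with the Cd5l transgene, against 0.406 and 3.07 CPM in 5xFAD. The sources used here do not say whether counting used the strand, and without it the reads of such pairs cannot be told apart.

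Ecrg4 encodes augurin, the precursor of secreted peptides that is strongly expressed in choroid plexus. The gene (ENSMUSG00000026051) lies on chromosome 1 from 43769762 to 43781738 on the plus strand. It had 3.65, 5.14 and 3.39 CPM in Cd5l-transgenic replicates 1, 2 and 3, against 4.06 and 28.7 CPM in 5xFAD replicates 1 and 3. The 4 libraries other than 5xFAD replicate 3 lay within 1.52 times of each other, the narrowest spread of any member, and 63.9% of its summed CPM lay in 5xFAD replicate 3. The log2 fold change was -2.03 (SE 0.79, unadjusted p = 0.0474, adjusted p = 0.995 by edgeR), and -0.0043 without 5xFAD replicate 3. It was the member called when 5xFAD replicate 1 was left out.

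Kl encodes klotho, the co-receptor of the hormone FGF23, which is also shed into cerebrospinal fluid. The gene (ENSMUSG00000058488) lies on chromosome 5 from 150876072 to 150917282 on the plus strand. It had 17.4, 40.7 and 22.3 CPM in Cd5l-transgenic replicates 1, 2 and 3, against 22.5 and 144 CPM in 5xFAD replicates 1 and 3. The 5xFAD mouse with the lower value matched Cd5l-transgenic replicate 3 closely. The log2 fold change was -1.64 (SE 0.78), and 0.25 without 5xFAD replicate 3.

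Folr1 encodes the folate receptor alpha, which moves folate through this epithelium into the cerebrospinal fluid. The gene (ENSMUSG00000001827) lies on chromosome 7 from 101507538 to 101519995 on the minus strand. It had 2.94, 5.11 and 3.14 CPM in Cd5l-transgenic replicates 1, 2 and 3, against 3.86 and 20.02 CPM in 5xFAD replicates 1 and 3. Its 5xFAD replicate 1 lay between Cd5l-transgenic replicates 3 and 2, and the log2 fold change was -1.70 (SE 0.70). Anapc15, a gene of the anaphase-promoting complex, overlaps it on the opposite strand. Anapc15 had 81.6, 67.5 and 68.7 CPM with the Cd5l transgene, against 103 and 70.3 CPM in 5xFAD, and was highest in 5xFAD replicate 1, not in replicate 3.

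Among the channels, Aqp1 encodes the water channel of the ventricle-facing membrane. The gene (ENSMUSG00000004655) lies on chromosome 6 from 55313417 to 55325540 on the plus strand. It had 3.17, 5.14 and 2.36 CPM in Cd5l-transgenic replicates 1, 2 and 3, against 2.51 and 18.4 CPM in 5xFAD replicates 1 and 3. The lower 5xFAD mouse lay near the bottom of the Cd5l-transgenic range, and the log2 fold change was -1.59 (SE 0.82), against 0.50 (SE 0.52) without 5xFAD replicate 3.

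Kcnj13 encodes the inwardly rectifying potassium channel Kir7.1. The gene (ENSMUSG00000079436) lies on chromosome 1 from 87314085 to 87322451 on the minus strand. It had 3.46, 6.74 and 2.75 CPM in Cd5l-transgenic replicates 1, 2 and 3, against 5.15 and 20.05 CPM in 5xFAD replicates 1 and 3. It was the member least concentrated in 5xFAD replicate 3, with 52.6% of its summed CPM there, and its log2 fold change was -1.57 (SE 0.66). Kcnj13 overlaps Gigyf2 on the opposite strand, a widely expressed gene with 75.5, 76.0 and 77.5 CPM with the Cd5l transgene, against 80.7 and 76.9 CPM in 5xFAD. Gigyf2 was thus nearly level over the libraries in which Kcnj13 differed several-fold.

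Clic6 encodes a protein of the chloride intracellular channel family. The gene (ENSMUSG00000022949) lies on chromosome 16 from 92282624 to 92338131 on the plus strand. It had 13.3, 22.7 and 11.4 CPM in Cd5l-transgenic replicates 1, 2 and 3, against 14.2 and 75.3 CPM in 5xFAD replicates 1 and 3. Its log2 fold change of -1.51 (SE 0.71) was the one nearest 0 among the members, and it was 0.16 without 5xFAD replicate 3.

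Cldn2 encodes claudin-2, a tight junction protein that forms pores for cations and water in leaky epithelia. The gene (ENSMUSG00000047230) lies on chromosome X from 138701577 to 138712135 on the plus strand. It had 2.33, 5.36 and 1.97 CPM in Cd5l-transgenic replicates 1, 2 and 3, against 3.35 and 20.1 CPM in 5xFAD replicates 1 and 3. After Enpp2 it had the widest spread over the 4 libraries other than 5xFAD replicate 3, at 2.73 times, and its log2 fold change was -1.89 (SE 0.82).

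Otx2 encodes the homeobox transcription factor OTX2. The gene (ENSMUSG00000021848) lies on chromosome 14 from 48895134 to 48911276 on the minus strand. It had 2.97, 3.98 and 2.36 CPM in Cd5l-transgenic replicates 1, 2 and 3, against 2.27 and 18.0 CPM in 5xFAD replicates 1 and 3. It was the only member lowest in 5xFAD replicate 1, so the 5xFAD libraries were the highest and the lowest of all, 7.94 times apart. The log2 fold change was -1.74 (SE 0.82), and 0.45 (SE 0.42) without 5xFAD replicate 3. Its opposite-strand neighbour Otx2os1 had 3, 6 and 5 counts with the Cd5l transgene, against 6 and 49 counts in 5xFAD, so that it was also highest in 5xFAD replicate 3. Per length Otx2 had the lowest level of the 10 genes in each library but 1, and it stood at 4.27 CPM per kb in 5xFAD replicate 3.

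**Figure D3:**
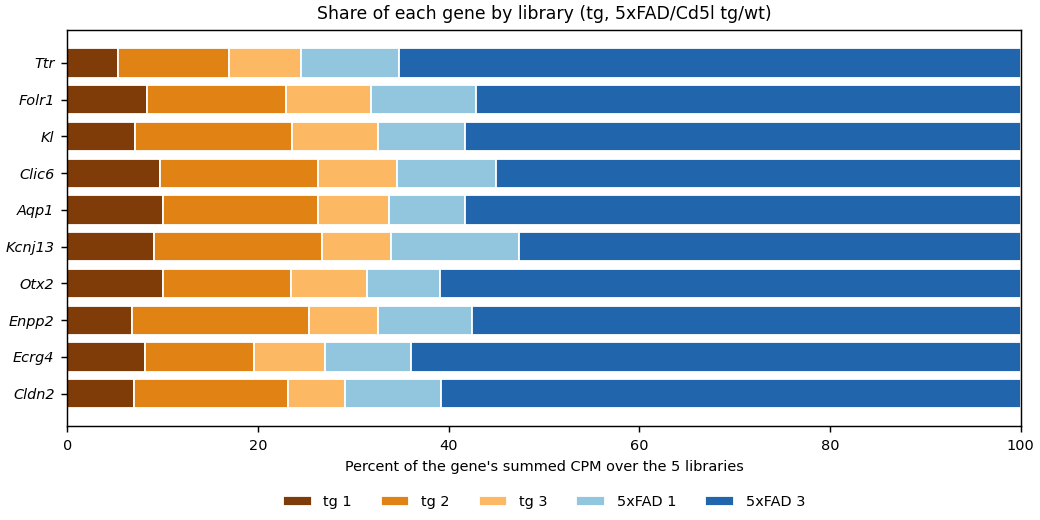
Percent of each gene's CPM, summed over the 5 libraries, that each library held, with the Cd5l-transgenic libraries (tg) on the left in orange and the 5xFAD libraries on the right in blue. 5xFAD replicate 3 held from 52.6% (Kcnj13) to 65.2% (Ttr) of each gene.

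Ttr and Enpp2 made up most of the sum of the 10 genes in every library, while that sum varied about 10-fold between libraries. Ttr gave 48.6%, 44.5% and 55.9% of the summed CPM in Cd5l-transgenic replicates 1, 2 and 3, against 56.5% and 58.4% in 5xFAD replicates 1 and 3. Enpp2 gave 39.7%, 46.0% and 34.5% with the Cd5l transgene, against 35.1% and 33.5% in 5xFAD. Without Ttr, Enpp2 made up 77.2%, 82.8% and 78.2% of the rest with the Cd5l transgene, against 80.7% and 80.5% in 5xFAD. The other 8 genes each gave under 5% of the sum in every library, and some of these shares varied more than others. Kl gave 4.15%, 4.09% and 4.32% with the Cd5l transgene, against 3.26% and 3.39% in 5xFAD. Otx2 gave 0.707%, 0.400% and 0.458% with the Cd5l transgene, against 0.329% and 0.425% in 5xFAD. Over the 45 pairs of members, Pearson's r of log2 CPM ran from 0.93 to 0.996 with a median of 0.97, over 5 libraries of which 5xFAD replicate 3 lies far from the rest.

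Counts were also set against Ttr in the same library, so that the total amount drops out. This ratio was chosen after the data were seen. Per 1000 counts of Ttr, Kl had 85.4, 92.1 and 77.4 counts in Cd5l-transgenic replicates 1, 2 and 3, against 57.7 and 58.0 counts in 5xFAD replicates 1 and 3. The 5xFAD libraries, which differed more than 6-fold in both genes, were nearly equal in this ratio, and all Cd5l-transgenic libraries lay above them. Clic6 had 65.0, 51.3 and 39.7 counts with the Cd5l transgene, against 36.3 and 30.4 counts in 5xFAD. Folr1 had 14.4, 11.6 and 10.9 counts with the Cd5l transgene, against 9.89 and 8.08 counts in 5xFAD. In all, 6 of 9 ratios (Folr1, Kl, Clic6, Aqp1, Otx2 and Ecrg4) were higher in every Cd5l-transgenic library than in both 5xFAD libraries, though for Ecrg4 the nearest values were 11.63 and 11.60. For Kcnj13, Enpp2 and Cldn2 the groups overlapped.

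These ratios share 1 denominator, and the background is set by it. Of the other 17723 tested genes, 26.2% were higher without overlap per count of Ttr in the Cd5l-transgenic libraries and 0.0169% lower. The 6 ratios are therefore not 6 separate results. As a percent of the member sum without Ttr, which is mostly Enpp2, the groups overlapped for each of these 6 genes. Kl made up 8.07%, 7.37% and 9.80% of that sum in Cd5l-transgenic replicates 1, 2 and 3, against 7.50% and 8.16% in 5xFAD replicates 1 and 3. The separation of the groups was thus seen relative to Ttr and not relative to the rest of the members. The ratio of Enpp2 to Ttr was 817, 1034 and 617 counts per 1000 with the Cd5l transgene, against 621 and 573 counts in 5xFAD. Its order over the libraries was that of the summed oligodendrocyte markers, at 976, 3943 and 299.8 CPM with the Cd5l transgene, against 307 and 273 CPM in 5xFAD. The part of those cells in the Enpp2 values was not tested.

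**Figure D4:**
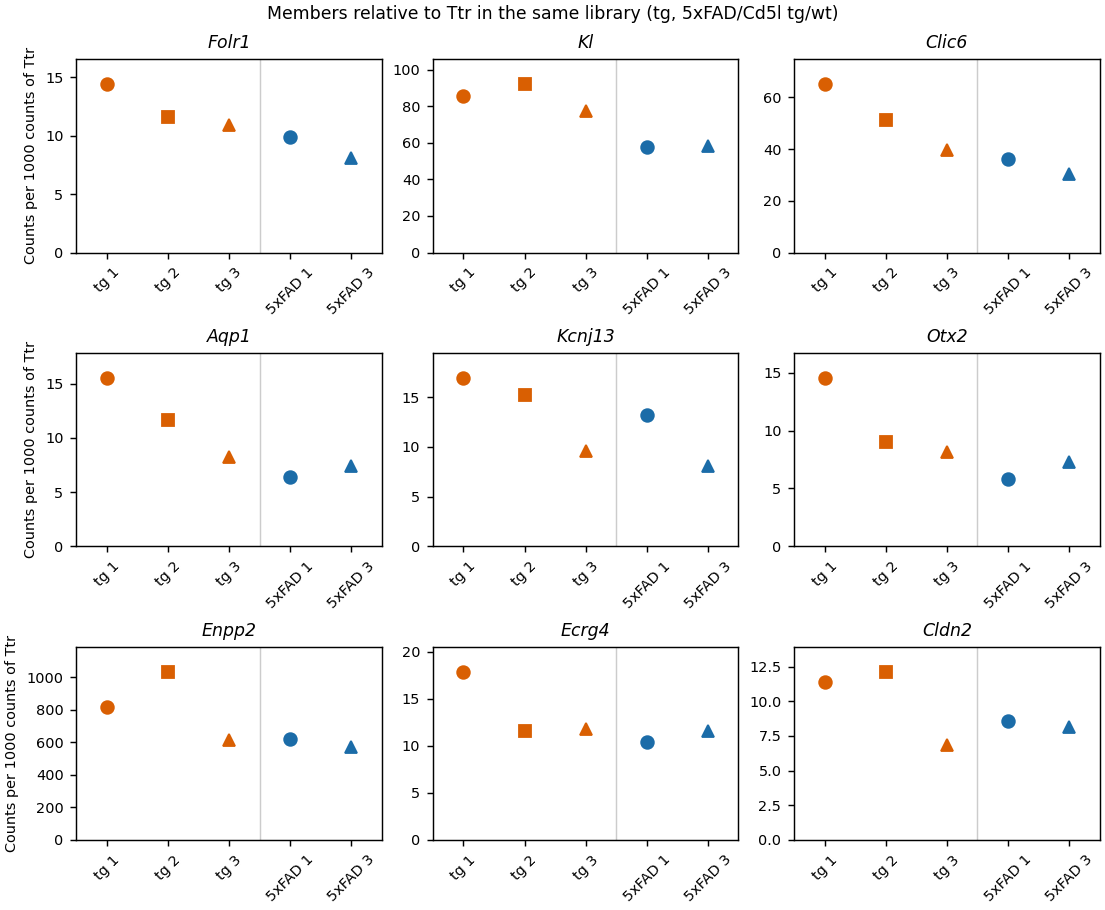
Counts of the other 9 genes per 1000 counts of Ttr in the same library, on linear axes from 0, 1 point per mouse, with the Cd5l-transgenic libraries (tg) in orange and the 5xFAD libraries in blue. For Kl the Cd5l-transgenic libraries lie between 77.4 and 92.1 and the 5xFAD libraries at 57.7 and 58.0, while for Enpp2, Kcnj13 and Cldn2 the groups overlap.

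Other choroid plexus genes were highest in the same library. Of 20 further markers, 19 were tested, and Slco1a5, an organic anion carrier, was not. All 19 were highest in 5xFAD replicate 3, 18 of them at least 2 times above the next library, where 3.85% of all tested genes were, and Cab39l stood at 1.51 times. The next highest library was Cd5l-transgenic replicate 2 for 15 of the 19, against 10 of 10 members. Their log2 fold changes were below 0 for 19 of 19, with a median of -1.59, and none was called. The median was -0.0099 without 5xFAD replicate 3 and -2.01 without Cd5l-transgenic replicate 2. The CPM of the 20 genes summed to 123, 210 and 148 CPM in Cd5l-transgenic replicates 1, 2 and 3, against 157 and 669 CPM in 5xFAD replicates 1 and 3. Kcne2, a potassium channel subunit, had 2.07, 5.39 and 1.60 CPM with the Cd5l transgene, against 3.45 and 25.0 CPM in 5xFAD. Sostdc1, a secreted inhibitor of BMP and Wnt signals, had 1.32, 3.13 and 1.69 CPM with the Cd5l transgene, against 2.71 and 20.6 CPM in 5xFAD. Of the 19, 3 were lower in every Cd5l-transgenic library than in both 5xFAD libraries (background 8.69%), which none of the 10 members was. Lmx1a, which passed the low-count filter only through the 5xFAD libraries, is among the 3.

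Lmx1a, a homeobox factor of the developing roof plate and choroid plexus, was 1 of those named by its unadjusted p. It had 5, 8 and 4 counts in Cd5l-transgenic replicates 1, 2 and 3, against 21 and 84 counts in 5xFAD replicates 1 and 3. The groups did not overlap and the log2 fold change was -3.14 (SE 0.74, unadjusted p = 0.00500, adjusted p = 0.995 by edgeR), at no more than 0.251 CPM in the Cd5l-transgenic libraries. Lmx1a passed the low-count filter only through the 5xFAD libraries and was named by its p. Its gap between the groups is therefore no independent support for a difference. Wfikkn2, a secreted binding protein of growth and differentiation factors, had 15, 28 and 30 counts with the Cd5l transgene, against 49 and 161 counts in 5xFAD, with a log2 fold change of -2.06 (SE 0.55, unadjusted p = 0.00991, adjusted p = 0.995 by edgeR).

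The general machinery in which the members work was read as lists. Without 5xFAD replicate 3, where the members' median was 0.07, the medians of ion transport, tight junction and carrier genes were 0.22, 0.09 and 0.38. Without Cd5l-transgenic replicate 2 they were -0.27, -0.44 and -0.12, against -2.04 for the members. The values below are those with all 5 libraries. Of 14 genes of ion transport into cerebrospinal fluid, 5 lay above 0 and 9 below, with a median of -0.11 and 0 called. Slc4a10, a sodium bicarbonate transporter of choroid plexus and neurons, had 6.56, 15.7 and 9.46 CPM in Cd5l-transgenic replicates 1, 2 and 3, against 9.18 and 64.6 CPM in 5xFAD replicates 1 and 3. Slc12a2, a widely expressed cotransporter of sodium, potassium and chloride, had 286, 341 and 346 CPM with the Cd5l transgene, against 343 and 412 CPM in 5xFAD. In 5xFAD replicate 3 Slc4a10 stood 4.10 times above the next library and Slc12a2 stood 1.19 times above it. Kcnq1, a partner of KCNE2 in potassium channels, had 0.904, 1.41 and 0.847 CPM with the Cd5l transgene, against 0.406 and 0.564 CPM in 5xFAD (log2 fold change 1.09, SE 0.44, unadjusted p = 0.0489 and adjusted p = 0.995 by edgeR).

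Of 11 genes of epithelial tight junctions other than Cldn2, 4 lay above 0 and 7 below, with a median of -0.32 and 0 called. Cgn, the junction protein cingulin, had 0.581, 1.63 and 0.968 CPM with the Cd5l transgene, against 1.52 and 3.33 CPM in 5xFAD, whereas F11r, a junctional adhesion molecule also found on leukocytes, had 373, 341 and 393 CPM with the Cd5l transgene, against 357 and 343 CPM in 5xFAD. The list of carrier genes held genes that carry thyroid hormone, retinoids, folate or vitamin C, and also deiodinases, enzymes that convert thyroid hormone. Of its 8 tested genes, 3 lay above 0 and 5 below, with a median of -0.03, and Rbp4, Crabp2 and Dio3 were not tested. Slc23a2, a vitamin C transporter, had 245, 238 and 252 CPM with the Cd5l transgene, against 279.9 and 270.03 CPM in 5xFAD, so that the groups did not overlap (log2 fold change -0.17, SE 0.07, unadjusted p = 0.0654 and adjusted p = 0.995 by edgeR).

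The receptors for the product of autotaxin and genes related to klotho were read in the same way. Of 9 genes for lysophosphatidic acid receptors and the phosphatases that break it down, 3 lay above 0 and 6 below, with a median of -0.10 and 0 called (-0.07 without 5xFAD replicate 3 and -0.08 without Cd5l-transgenic replicate 2). Lpar1, a receptor gene that oligodendrocytes express, had 4.23, 21.7 and 2.36 CPM with the Cd5l transgene, against 1.22 and 3.83 CPM in 5xFAD, and was highest in Cd5l-transgenic replicate 2. Of the klotho-related genes, Fgfr1, Fgfr2 and Fgfr3 were tested, with 2 above 0, 1 below and a median of 0.16. Fgfr4, Klb and Fgf23 were not tested. That median was 1.08 without 5xFAD replicate 3 and -0.58 without Cd5l-transgenic replicate 2. Fgfr1 had 11.95, 18.2 and 10.3 CPM with the Cd5l transgene, against 10.8 and 22.7 CPM in 5xFAD.

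Markers of other cells near the ventricles were read beside the members. The 18 genes of motile cilia, which mark the ependymal cells that line the ventricles, were all highest in 5xFAD replicate 3 and all at least 2 times above the next library. Their sum was 74.8, 70.6 and 53.0 CPM in Cd5l-transgenic replicates 1, 2 and 3, against 43.6 and 330 CPM in 5xFAD replicates 1 and 3, with a median log2 fold change of -1.49 and 0 called. They did not share the second place of the members, since Cd5l-transgenic replicate 2 was next highest for 7 of 18, against 10 of 10 members. Foxj1, the master factor of motile cilia, had 9.43, 11.9 and 6.53 CPM with the Cd5l transgene, against 4.57 and 39.1 CPM in 5xFAD. Set against the members, the cilia genes came to 17.8, 7.11 and 10.3 CPM per 100 CPM of members with the Cd5l transgene, against 6.31 and 7.78 CPM in 5xFAD. The median of the cilia genes was 0.56 without 5xFAD replicate 3 and -1.55 without Cd5l-transgenic replicate 2. Without 5xFAD replicate 1, 6 of the 18 were called lower by edgeR (Ak7, Cfap44, Cfap46, Dnah5, Dnah11 and Dnah12), where 0.0528% of all genes were, and 5xFAD replicate 3 was then the only 5xFAD mouse. The part of ependymal cells in the values of the members was not tested.

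The other cell types differed in their orders, and the stromal and meningeal sum had the same highest and next highest library as the members. The 10 stromal and meningeal genes summed to 17.0, 35.3 and 22.2 CPM with the Cd5l transgene, against 16.7 and 60.1 CPM in 5xFAD, with 5 of 9 tested ones highest in 5xFAD replicate 3 and a median log2 fold change of -0.10. That median was 0.80 without 5xFAD replicate 3 and -0.48 without Cd5l-transgenic replicate 2. Igfbp2, an insulin-like growth factor binding protein also made by choroid plexus, was among them, at 7.11, 13.4 and 6.50 CPM with the Cd5l transgene, against 7.82 and 34.7 CPM in 5xFAD. All 8 endothelial, all 6 mural and all 8 oligodendrocyte markers were highest in Cd5l-transgenic replicate 2, with median log2 fold changes of 0.77, 0.83 and 2.86. Without that library these medians were 0.35, 0.59 and 1.03. The medians of 7 astrocyte, 7 neuron, 8 microglia and 7 border macrophage markers were 0.14, 0.68, 0.07 and 0.22. Without Cd5l-transgenic replicate 2 they were 0.08, -0.03, 0.13 and 0.46, and without 5xFAD replicate 3 they were 0.80, 1.51, 0.11 and 0.32. None of these markers was called by edgeR. Of the 7 astrocyte markers, 3 were highest in 5xFAD replicate 3 and 3 in Cd5l-transgenic replicate 2. Border macrophages, which include those of the choroid plexus, had 334, 213 and 384 CPM summed with the Cd5l transgene, against 243 and 281 CPM in 5xFAD, so they were not highest in 5xFAD replicate 3.

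**Figure D5:**
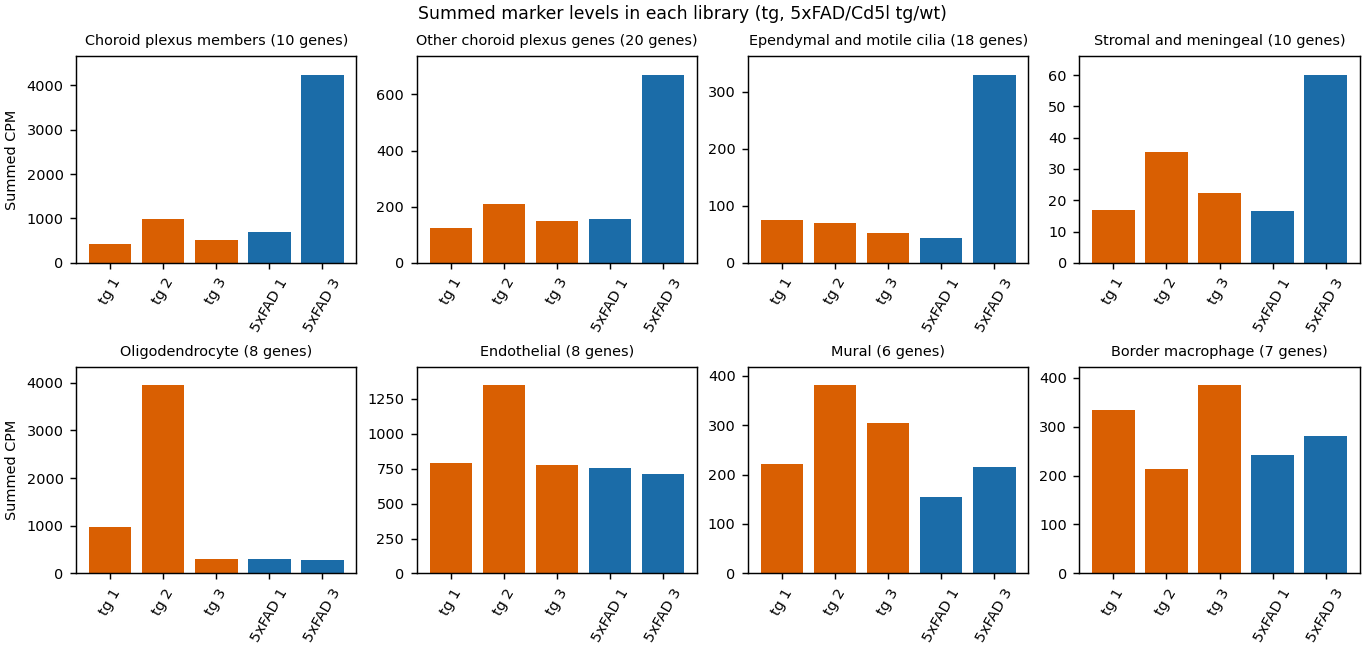
Summed CPM of the choroid plexus genes and of marker lists of other cell types in each library, 1 bar per mouse on linear axes from 0, with the Cd5l-transgenic libraries (tg) in orange and the 5xFAD libraries in blue. The choroid plexus and cilia sums are highest in 5xFAD replicate 3 (4239, 669 and 330 CPM), and the oligodendrocyte sum is highest in Cd5l-transgenic replicate 2 (3943 CPM).

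The genes most like the members were sought among 12385 other protein-coding genes, those averaging 1 CPM or more, by Pearson's r of log2 CPM with the average of the 10 members over the 5 libraries. This r describes 5 points, of which 1 lies far out, and 244 genes reached 0.95. The 12 most alike, with r from 0.996 to 0.9997, were F3, Spint2, Slc29a4, Tbcel, Polr1has, Ppp1r1b, Endog, Slc4a5, Arl6ip1, F5, Cfap61 and Slit2. Slc4a5, a bicarbonate transporter, and F5, coagulation factor V, were on the list of other choroid plexus genes. The likeness is one of the profile over the libraries and not of the size of its differences. In 5xFAD replicate 3 Slit2, the guidance protein, stood 5.09 times above the next library. Slc29a4, a monoamine transporter, stood 3.94 times above it and Arl6ip1 1.11 times. Slit2 had 1.32, 2.51 and 1.48 CPM with the Cd5l transgene, against 1.76 and 12.8 CPM in 5xFAD.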

How the data were processed

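RNA from CD11b-positive brain cells was measured in 3 libraries of 5xFAD/Cd5l tg/wt mice and 2 of 5xFAD mice, grouped by title. The authors deposited whole-number counts per Ensembl gene, not normalised, in 1 table with gene names, positions and lengths. Per the submitters' processing notes the genome build was GRCm39 (mm39). The sources used here do not give the aligner, the counter, the annotation or the use of strand. The column of Cd5l-transgenic replicate 3 spelled its library name with the letter pairs swapped, and was matched by letters and number.

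From these counts, genes were filtered with filterByExpr by group (17724 of 56748 kept), scaled by TMM (factors 0.952 to 1.02) and tested with the robust quasi-likelihood test of edgeR 4.0.16 under R 4.3.3, with genotype alone in the design and Benjamini-Hochberg adjustment over all tested genes at 0.05. The biological coefficient of variation was 0.26. CPM are TMM-scaled, CPM per kb are divided by the deposited gene length, and standard errors were derived from fold change and F statistic. Library totals of 30798377 to 34794617 counts set the precision. Every pair of libraries differed by more than sampling noise (chi-square per degree of freedom 21.5 to 61.3), so all 5 counted as separate samples. The scripts were tested on simulated counts. The main fit did not pair samples by replicate number, and whether shared numbers mark pairs could not be decided from these libraries.

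The members and the 15 other gene lists were chosen with earlier results of these data known. All members are named. Of each list the text draws on the 2 genes of smallest unadjusted p and up to 2 of highest level per length in 5xFAD, and in addition names Cab39l, genes that overlap members and genes called in an alternative. Values of a few listed genes are not reported here. Alternatives were DESeq2 1.42.0 (size factors and Wald test), upper-quartile factors, library totals alone, limma-voom (limma 3.58.1) with sample weights, no low-count filter, 5 CPM in 2 libraries, the replicate block, each library left out and, added later, 2 libraries left out, the older quasi-likelihood method and ratios to Ttr.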

Additional observations from a re-analysis of the deposited data

How the results depend on the processing

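All 10 members kept a log2 fold change below 0 under every other scaling, filter and test run on all 5 libraries, with medians from -1.74 to -1.54, and the 5 CPM filter left Otx2 untested. The exceptions came with libraries left out. Over the fits that left out 1 library each, log2 fold changes ran from -2.42 to 0.25 for Kl, -2.25 to 0.16 for Clic6, -2.37 to 0.50 for Aqp1, -2.54 to 0.45 for Otx2 and -2.41 to 0.14 for Enpp2, each highest without 5xFAD replicate 3. With 5xFAD replicate 3 and Cd5l-transgenic replicate 2 both left out, Aqp1 stood at 0.14 and Otx2 at 0.24. Genes called numbered 0 in the main edgeR fit, 0 to 10 over the fits without 1 library, 41 with both libraries left out, 11 in DESeq2 and 0 in limma-voom. Members called numbered 0 to 1 over the fits without 1 library (Ecrg4 without 5xFAD replicate 1) and 0 in all others. Called genes of the lists numbered 0 to 6 over those fits, 3 in DESeq2 (Acta2, Myh11 and Tagln) and 1 with both left out (Myh11). The cause of these differences was not tested. With the replicate block, 0 members were called and their log2 fold changes ran from -2.16 to -1.46. The correlation of same-numbered libraries, taken on deviations from the group means, was 0.13 for number 1 and -0.24 for number 3. Both values rest on the same difference between the 5xFAD libraries, so they cannot decide whether the numbers pair the samples. The share of member RNA in 5xFAD replicate 3 was 61.8%, and became 62.3% with library totals, 61.5% with DESeq2 size factors, 57.6% without Ttr and 59.0% with members weighted equally. The share of Enpp2 in that library's member RNA became 80.5% without Ttr by construction. Members such as Folr1, Aqp1, Otx2 and Cldn2 rested on 65 to 171 counts in each library other than 5xFAD replicate 3, which limits their ratios, and with 2 mice in 5xFAD the spread of that group rests on 1 difference.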
